A study of Mus musculus with 6 samples.

Results

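The desmosome genes described here were the 10 genes Dsg2, Dsg3, Dsc2, Dsc3, Jup, Pkp1, Pkp2, Pkp3, Dsp and Perp, which encode the adhesion molecules and plaque proteins of the desmosome. They were chosen by name as known desmosome genes by a rule that uses no measured value, although earlier results of these data were known when the list was made, and were found through the transcript accessions of the array's probes. All 10 were on the array, out of 22910 genes in all, and all 10 were among the 14345 genes tested. The cultures were 2D-MAOs, which are mouse airway epithelial organoids (MAOs) from C57BL/6 lung that were dissociated and plated as a flat epithelial layer. The control group was 3 cultures kept without added TGF-β1, and the TGF-β1 group was 3 cultures that received this secreted growth factor on day 3. Both groups were in medium that lacked noggin, an inhibitor of bone morphogenetic proteins, and A83-01, an inhibitor of TGF-β receptors, and both were collected on day 7. No age of the mice was given in the sources used here, and the paper describes the 3 cultures of a group as biological replicates.

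Desmosomes are spot-like junctions that fasten epithelial cells to each other and tie the junction to the keratin filaments inside the cell. Desmogleins and desmocollins are cadherins that cross the gap between cells. Plakoglobin and the plakophilins are armadillo proteins that bind the cadherin tails, and desmoplakin links this plaque to keratin. TGF-β is known for weakening epithelial junctions during epithelial-mesenchymal transition, and the comparison asks what the treatment did to the RNA of the genes that build this one.

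The unit throughout is the normalized log2 signal, which is the log2 brightness of a gene's probe after the 6 arrays were given the same distribution by quantile normalization. A log2 fold change is the TGF-β1 mean minus the control mean on this scale, and 1 unit is 2-fold. The brightness of a probe depends on its sequence, so signal levels were compared between arrays and not between genes. A gene passed the test when its Benjamini-Hochberg adjusted p in limma was under 0.05 and its change was at least 2-fold. Of the genes tested, 171 rose by this rule (1.19%) and 27 fell (0.188%). RNA of a whole culture was measured, so fewer cells of a type and less RNA per cell cannot be told apart.

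The treatment was visible on known TGF-β target genes, of which 7 of 7 were higher on every TGF-β1 array than on every control array. Among them Tgfbi, a secreted matrix protein, rose by 4.58 ± 0.31 (SE) and Pmepa1, an inhibitor of TGF-β signalling, rose by 1.31 ± 0.12 (SE) on the log2 scale in limma. Fn1, which encodes fibronectin, rose by 2.22 (limma adjusted p = 0.0279), a call lost without control replicate 1 or 2 or TGF-β1 replicate 1 or 2, with adjusted p up to 0.122. Ltbp2, a matrix protein related to the latent TGF-β binding proteins, was well above background on 1 control and 3 TGF-β1 arrays. It thus entered the test through the TGF-β1 group, with control signals near the limit of detection. Its place among the 7 and its log2 fold change of 4.03 (limma adjusted p = 0.00316) are therefore descriptive only. The array of TGF-β1 replicate 3 stood apart from the other arrays of its group. Its distance over all genes tested was 61.1 and 62.3 log2 units from TGF-β1 replicates 1 and 2, which lay 32.3 apart, and 54.4 to 60.9 from the controls. On the slide, both replicate 3 arrays lay in row 2 and the other 4 arrays in row 1. The main results below are therefore given with and without TGF-β1 replicate 3. The share of probes well above background was 55.0% to 59.0% on the 6 arrays.

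None of the 10 desmosome genes passed the test in limma, in either direction. A higher mean after TGF-β1 was found for 9 of 10, against 45.8% of all genes tested, with Dsc3 the exception; under scaling to the 75th percentile Jup was lower too, leaving 8 of 10, beside 5488 of 14345 genes. The log2 fold changes of the 10 genes ran from -0.22 to 0.81 with a median of 0.35 (0.22 under that scaling), whereas the median of all genes tested was -0.03. At an unadjusted p under 0.05 in limma, 4 of 10 were higher (Pkp1, Perp, Dsp and Dsg2), against 11.4% of all genes, and 0 of 10 had an adjusted p under 0.05. In 4 of 10 (Pkp1, Perp, Dsg2 and Pkp2) every TGF-β1 array was above every control array, against 12.9% of all genes, and scaling to the 75th percentile left 1 such gene. No member lay below in the same way, which 13.5% of all genes did. With 3 arrays against 3, the exact two-sided permutation test of a single gene cannot go below 0.1, and these 4 genes had that value.

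**Figure D1:**
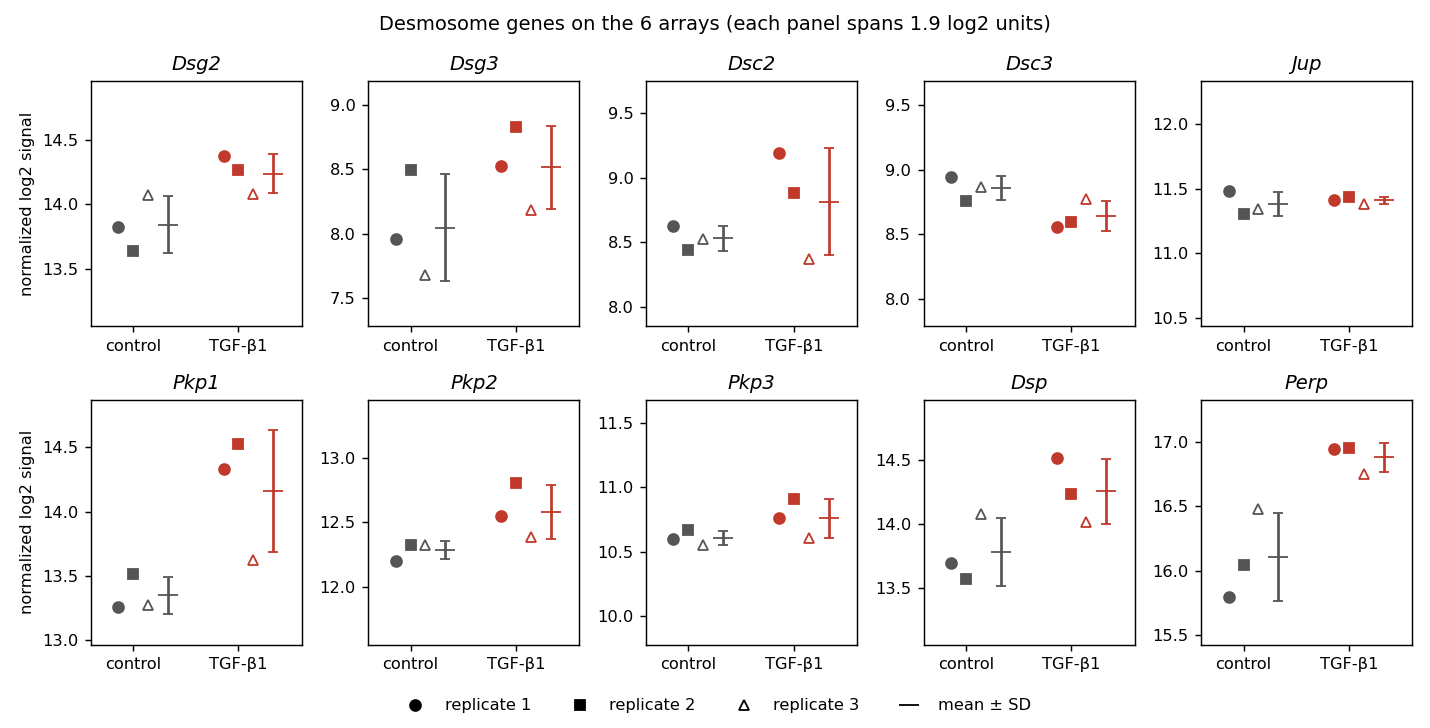
Normalized log2 signal (y axis) of each desmosome gene on the 3 control and 3 TGF-β1 arrays (x axis), 1 symbol a replicate, with the mean and SD beside the points; all panels span the same number of log2 units. Pkp1, Perp, Dsg2 and Pkp2 have no overlap between the groups, and the open triangle of TGF-β1 replicate 3 is the lowest treated point in every gene but Dsc3.

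The desmosomal cadherins come first, and none of the 4 passed the test. Dsg2, the desmoglein found in all tissues that make desmosomes, had signals of 13.82, 13.63 and 14.07 on control arrays 1, 2 and 3 and of 14.37, 14.26 and 14.08 on TGF-β1 arrays 1, 2 and 3. The groups did not overlap, but the highest control and the lowest TGF-β1 array were nearly level. The mean was higher by 0.40 ± 0.15 (SE) log2 units, with a 95% interval of 0.04 to 0.75 and an adjusted p in limma of 0.192. It was 0.48 (limma adjusted p = 0.0850) without TGF-β1 replicate 3 and 0.18 (adjusted p = 0.378) with scaling to the 75th percentile, and its adjusted p ranged from 0.0162 to 0.541 over all the alternatives run. A second Dsg2 probe, which was dimmer, had a log2 fold change of 0.12.

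Dsg3, a desmoglein of basal cells in stratified epithelium, had control signals of 7.96, 8.50 and 7.68 and TGF-β1 signals of 8.53, 8.83 and 8.18. Control replicate 2 lay inside the TGF-β1 range, so the groups overlapped. The difference of 0.47 ± 0.25 (SE) log2 units had a 95% interval of -0.13 to 1.06 and an adjusted p in limma of 0.308, with the widest spread among controls of any member (SD 0.42, n = 3). Single controls moved it from 0.29 (without control replicate 3) to 0.69 (without control replicate 2), and it was 0.63 without TGF-β1 replicate 3. Across the arrays the ratio of the Dsg3 spot to its local background was 7.25 to 15.4, which bears on the precision of the probe and not on the amount of RNA.

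Dsc2, the most widely expressed desmocollin, had control signals of 8.63, 8.44 and 8.53 and TGF-β1 signals of 9.19, 8.88 and 8.37. TGF-β1 replicates 1 and 2 were above all controls and replicate 3 was below them all. With all arrays its log2 fold change was 0.29 ± 0.21 (SE), with a 95% interval of -0.21 to 0.78 and an adjusted p of 0.434 in limma, and it was 0.097 when TGF-β1 replicate 1 was left out and 0.51 when TGF-β1 replicate 3 was.

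Dsc3, the desmocollin of basal layers, was the member with the lower mean. Its signals were 8.95, 8.76 and 8.86 in the controls and 8.55, 8.59 and 8.77 after TGF-β1. TGF-β1 replicate 3 lay within the control range and the other 2 TGF-β1 arrays lay below it. In limma the difference was -0.22 ± 0.11 (SE) log2 units, with a 95% interval of -0.49 to 0.05 and an adjusted p of 0.298. It was -0.28 without TGF-β1 replicate 3. This value rests on 1 of 3 Dsc3 probes, and its accession is another RefSeq transcript than that of the other 2, each well above background on 0 of 6 arrays. It therefore says nothing of the transcript those 2 probes carry.

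Of the armadillo proteins of the plaque, Pkp1 had the largest change of any member over the 6 arrays. Pkp1 encodes plakophilin 1, which clusters desmosomal proteins and is most abundant in stratified epithelium. Its signals were 13.26, 13.51 and 13.28 in the controls and 14.33, 14.52 and 13.63 after TGF-β1. All TGF-β1 arrays were above all controls, replicates 1 and 2 clearly and replicate 3 by a small margin. The 3 controls had a mean of 13.35 (SD 0.14) and the 3 TGF-β1 arrays one of 14.16 (SD 0.47), a 1.75-fold difference. In limma this was 0.81 ± 0.24 (SE) log2 units, with a 95% interval of 0.25 to 1.37 and an adjusted p of 0.134. Without TGF-β1 replicate 3 Pkp1 rose by 1.07 ± 0.13 (SE) with an adjusted p of 0.00941 in limma, and so passed the test. With scaling to the 75th percentile the Pkp1 difference was 0.60 (limma adjusted p = 0.165). Over all the alternatives run, the Pkp1 adjusted p ranged from 0.00693 to 0.385.

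Pkp2, the plakophilin of simple epithelium and heart, had control signals of 12.20, 12.32 and 12.32 and TGF-β1 signals of 12.55, 12.80 and 12.39. The groups did not overlap, and TGF-β1 replicate 3 was again nearest to the controls. Its difference in limma was 0.30 ± 0.13 (SE) log2 units, with a 95% interval of -0.02 to 0.62 and an adjusted p of 0.250. It was 0.39 without TGF-β1 replicate 3, 0.18 without TGF-β1 replicate 2 and 0.15 with scaling to the 75th percentile. Pkp3, a plakophilin that is found in most epithelia, had control signals of 10.60, 10.67 and 10.55 and TGF-β1 signals of 10.76, 10.91 and 10.60. The groups overlapped through TGF-β1 replicate 3, and the means differed by 0.15 ± 0.12 (SE) log2 units in limma, with a 95% interval of -0.13 to 0.43 and an adjusted p of 0.457. The Pkp3 difference was 0.23 without TGF-β1 replicate 3, 0.076 without TGF-β1 replicate 2 and 0.064 with scaling to the 75th percentile.

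Within each array, Pkp1 moved apart from the other plakophilins. The difference of Pkp1 minus Pkp2, set to a mean of 0 in the controls, was -0.01, 0.12 and -0.11 in the controls and 0.71, 0.65 and 0.17 after TGF-β1. The Pkp1 minus Pkp3 difference was -0.08, 0.10 and -0.02 in the controls and 0.82, 0.87 and 0.28 after TGF-β1. Both differences were higher on every TGF-β1 array than on every control array, with mean changes of 0.51 and 0.66 log2 units. They are descriptive, since no test of them was run. The 5 other pairs compared in this way overlapped between the groups, among them Dsg3 minus Dsg2 (mean change 0.07) and Dsc3 minus Dsc2 (-0.50).

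Jup encodes plakoglobin, which is shared by desmosomes and adherens junctions. Its signals were 11.49, 11.31 and 11.35 in the controls and 11.41, 11.44 and 11.38 after TGF-β1. All 3 TGF-β1 arrays lay within the control range. The means differed by 0.03 ± 0.10 (SE) log2 units in limma with an adjusted p of 0.872, and the 95% interval of -0.21 to 0.27 did not reach 2-fold in either direction. It was 0.05 without TGF-β1 replicate 3. Its sign was not stable, because a second Jup probe had a log2 fold change of -0.12 and scaling to the 75th percentile in place of quantile normalization gave -0.08.

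Dsp encodes desmoplakin, the plakin on which attachment to keratin depends. Its signals were 13.70, 13.57 and 14.08 in the controls and 14.51, 14.23 and 14.02 after TGF-β1. The groups overlapped, since control replicate 3 was above TGF-β1 replicate 3. Desmoplakin RNA differed by 0.47 ± 0.19 (SE) log2 units in limma, with a 95% interval of 0.03 to 0.91 and an adjusted p of 0.206. It was 0.59 (limma adjusted p = 0.0811) without TGF-β1 replicate 3 and 0.26 ± 0.15 (SE, adjusted p = 0.311) with scaling to the 75th percentile, and its adjusted p ranged from 0.0156 to 0.510 over all the alternatives run. The Dsp minus Jup difference within an array, set to 0 in the controls, was -0.19, -0.14 and 0.33 in the controls and 0.69, 0.39 and 0.23 after TGF-β1, so that the groups overlapped here too.

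Perp encodes a membrane protein with 4 passes that is needed for desmosome assembly in stratified epithelium and is a target of p53 and p63. It had the lowest unadjusted p of the members. The signals were 15.80, 16.04 and 16.48 in the controls and 16.94, 16.95 and 16.75 after TGF-β1. Every TGF-β1 array was above every control, and the 3 TGF-β1 arrays lay closer together than the controls did. The control mean was 16.11 (SD 0.34, n = 3) and the TGF-β1 mean 16.88 (SD 0.11, n = 3), which is 1.71-fold. In limma the difference was 0.77 ± 0.18 (SE) log2 units, with a 95% interval of 0.33 to 1.21, an unadjusted p of 0.00434 and an adjusted p of 0.0935. Its limma adjusted p was 0.0462 without TGF-β1 replicate 3 and 0.0409 without control replicate 3, with log2 fold changes of 0.84 and 0.96 that stayed under 2-fold. The Perp difference was 0.56 (limma adjusted p = 0.126) with scaling to the 75th percentile and 0.62 (adjusted p = 0.271) without control replicate 1. Its adjusted p ranged from 0.00638 to 0.304 over all the alternatives run.

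**Figure D2:**
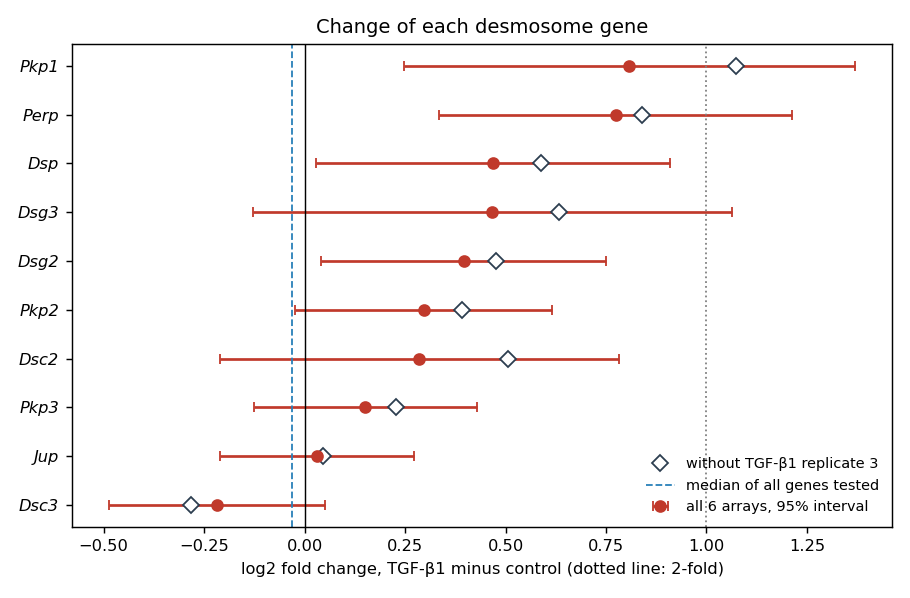
Log2 fold change of each desmosome gene (x axis), TGF-β1 minus control, with its 95% interval over all 6 arrays (filled circles) and without TGF-β1 replicate 3 (open diamonds). Only the Pkp1 diamond, at 1.07, lies beyond the dotted line that marks 2-fold, and the intervals of Pkp1, Perp, Dsp and Dsg2 lie above 0.

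Promoter windows of 2 of the 10 members were examined, and those of the other members were not. The 2 are Jup and Dsp, the plaque protein with the smallest change in size and the protein that joins it to keratin. They are printed because the 2 proteins bind each other in the plaque while their genes had log2 fold changes of 0.03 and 0.47. Each window is the 200 bases that end 51 bases before the start site, 5′ to 3′ on the gene's strand, from RefSeq on GRCm38.p6. Jup lies at chr11:100397841-100398040 on the minus strand and Dsp at chr13:38151044-38151243 on the plus strand. Capitals mark the GC box, GGGCGG on either strand, a motif searched for after the windows had been seen.
Jup: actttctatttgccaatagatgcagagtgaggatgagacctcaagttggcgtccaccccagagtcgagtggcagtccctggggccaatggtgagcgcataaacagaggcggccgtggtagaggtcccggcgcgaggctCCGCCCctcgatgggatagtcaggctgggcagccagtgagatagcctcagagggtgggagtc
Dsp: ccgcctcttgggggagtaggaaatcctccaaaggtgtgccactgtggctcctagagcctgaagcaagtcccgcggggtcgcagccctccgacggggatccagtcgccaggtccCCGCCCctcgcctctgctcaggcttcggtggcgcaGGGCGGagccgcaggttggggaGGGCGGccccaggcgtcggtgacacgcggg
The Jup window held 1 GC box, 112 bases before the start site, and the Dsp window held 3, with 24.64% of 32851 windows of the same length holding at least 1. Neither window held the AP-1 letters TGANTCA, the E-box letters CAGGTG or the Grhl letters AACCNGTT on either strand. These were found in 5.574%, 14.43% and 1.419% of all windows. The Dsp window had 18 CpG pairs and the Jup window 10. A match or its absence describes only these letters in this window.

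TGF-β1 replicate 3 was the lowest of the TGF-β1 arrays for 9 of the 9 members with a higher mean, and the highest for Dsc3. Among all genes with a higher mean, 58.9% had replicate 3 as the lowest TGF-β1 array. Averaged over the 10 members, the signal relative to the control mean was -0.04, 0.00 and 0.04 on control arrays 1, 2 and 3. It was 0.44, 0.46 and 0.14 on TGF-β1 arrays 1, 2 and 3, so replicate 3 lay between the controls and the other treated arrays. The median log2 fold change of the members was 0.49 when taken from TGF-β1 replicates 1 and 2 and 0.12 when taken from replicate 3.

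**Figure D3:**
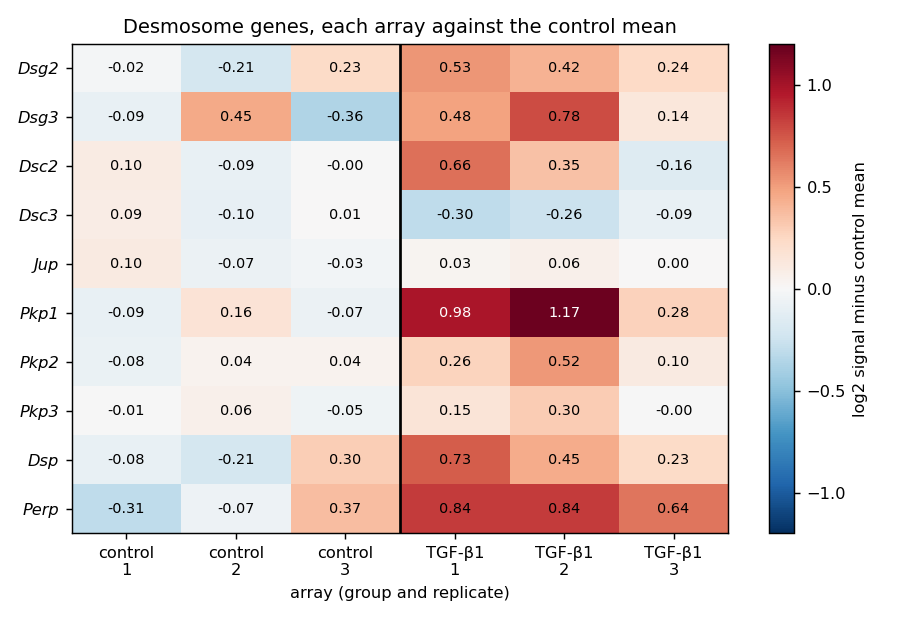
Signal of each desmosome gene (rows) on each array (columns) minus the control mean of that gene, in log2 units, with red above and blue below the control mean. Pkp1 and Perp are the deepest red on TGF-β1 arrays 1 and 2, the column of TGF-β1 replicate 3 is paler in all rows, and control replicate 3 is the highest control for Dsg2, Dsp and Perp.

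Without TGF-β1 replicate 3, 1 of the 10 members passed the test (Pkp1), against 3.86% of all genes rising by the same rule. Pkp1 and Perp, 2 of the 10, then had a higher mean at an adjusted p under 0.05 with no minimum fold, against 9.08% of all genes. Within slide row 1, which held replicates 1 and 2 of both groups, the log2 differences were 1.04 for Pkp1, 1.03 for Perp, 0.74 for Dsp and 0.59 for Dsg2. Within row 2, which held 1 array of each group, they were 0.35, 0.27, -0.06 and 0.01. Dsg3 differed by 0.45 and 0.50 in the 2 rows, and Jup by 0.03 and 0.04. The slide row and the replicate cannot be told apart, since row 2 held replicate 3 only.

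The genes of neighbouring structures were taken as lists, and they were described by counts and medians alone. Of the other desmosome and plaque genes, 6 of 10 were tested and 0 passed, with a median log2 fold change of -0.01. Dsc1, a desmocollin of upper epidermal layers that was well above background on 2 control arrays and 1 TGF-β1 array, near the limit of detection, differed by -0.86 log2 units, with an adjusted p of 0.125 in limma. Evpl and Ppl, which encode the plakins envoplakin and periplakin, had values of 0.35 and -0.23 (adjusted p = 0.195 and 0.400). Under scaling to the 75th percentile Evpl had 0.13 and Ppl -0.46, and the median of this list was -0.12. Dsg1a, Dsg1b, Dsg1c and Dsg4 had 0 arrays well above background.

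Among adherens junction genes, 0 of 11 passed the test, 10 of 11 had a higher mean and the median was 0.40. Cdh3, which encodes P-cadherin, differed by 1.33 log2 units at an adjusted p of 0.0736 in limma, and the nectins Nectin1 and Nectin4 had 0.81 and 0.73 (adjusted p = 0.106 and 0.167). Under scaling to the 75th percentile 7 of 11 were higher and the median was 0.17. Without TGF-β1 replicate 3 the median was 0.52 and 3 of 11 passed.

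Hemidesmosome genes, which fasten the cell to the matrix below through keratin, were higher in the mean in 9 of 9, or in 8 of 9 under scaling to the 75th percentile. Their median was 0.85, and 1 of the 9 passed. This was Dst, which encodes a plakin that ties keratin to the hemidesmosome, and it rose by 1.14 (limma adjusted p = 0.0484). Without TGF-β1 replicate 3 the median was 1.11 and 7 of 9 passed. Leaving out any of the other 5 arrays ended the Dst call, with adjusted p up to 0.178.

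Of the keratins that desmosomes anchor, 12 of 13 were tested and 2 rose, Krt16 and Krt17, with adjusted p of 0.0492 and 0.0472 in limma and a Krt17 log2 fold change of 1.06. Krt16 had a mean signal of 7.78 in the controls and 8.88 after TGF-β1. Both are keratins of activated epithelium. Leaving out any array but TGF-β1 replicate 3 ended both calls, with adjusted p up to 0.164 and 0.193, and leaving out that array raised the number that passed to 6. With scaling to the 75th percentile the log2 fold changes were 1.15 for Krt16 and 0.83 for Krt17, the latter under 2-fold. The 12 had a median of 0.20, and 8 had a higher mean. Under scaling to the 75th percentile their median was -0.0003 and 6 had a higher mean, and without TGF-β1 replicate 3 the median was 0.37. Krt14 and Krt6a had values of 1.55 and 1.77, and Krt4 had -1.69, none of which passed.

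Cornified envelope genes had 7 of 10 tested, of which 1 rose and 6 had a lower mean, with a median of -0.21. The gene that rose was Sfn, which encodes 14-3-3 sigma, by 1.23 (limma adjusted p = 0.0074), and it passed whichever array was left out. With scaling to the 75th percentile its log2 fold change was 0.998, just under 2-fold. Without TGF-β1 replicate 3, 3 of the 7 passed, and the other 2 fell: Sprr1a by 1.21 and Lor by 1.02 (limma adjusted p = 0.0376 and 0.0346), which both encode proteins of the cornified envelope. Transcription factors of epithelial junction genes had 0 of 10 that passed, 5 higher and 5 lower in the mean, and a median of -0.04. Under scaling to the 75th percentile 3 of the 10 were higher and their median was -0.18. With quantile normalization the largest changes in size were those of Ovol1 (-0.74, adjusted p = 0.115), Grhl3 (0.49, adjusted p = 0.176) and Grhl1 (-0.37, adjusted p = 0.119). Of 5 repressors of epithelial junction genes, Snai2 and Zeb1 were tested, with values of 0.68 and 0.31 (adjusted p = 0.185 and 0.502). Zeb1 was near the limit of detection, well above background on 2 control and 2 TGF-β1 arrays. Snai1 and Twist1 were detected well above background on no array.

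**Figure D4:**
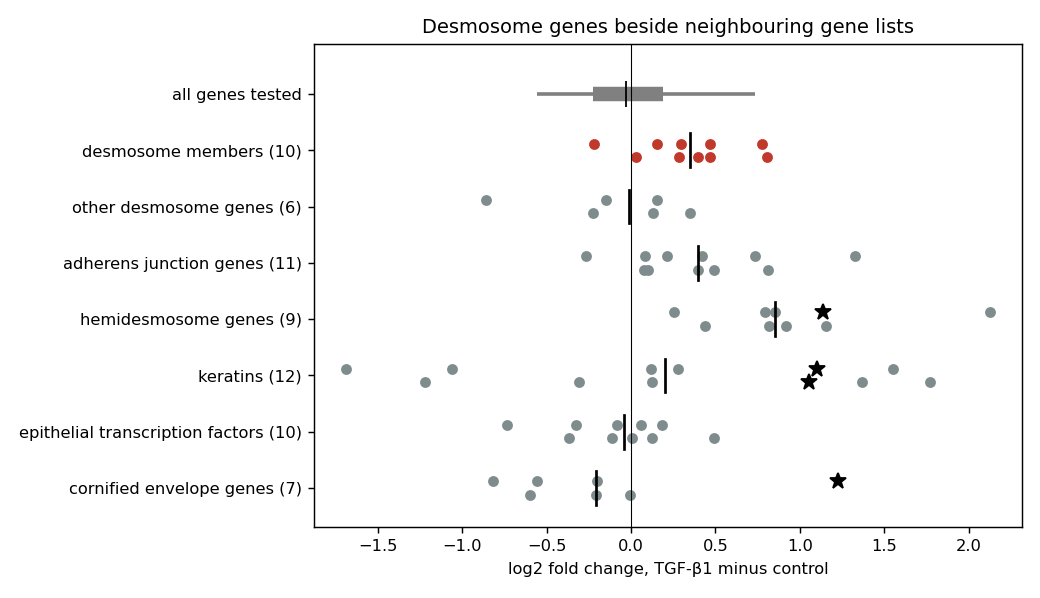
Log2 fold change (x axis), TGF-β1 minus control, of each tested gene of the desmosome members and of 6 neighbouring lists, with a bar at each median and stars for genes that passed the test; the thick and thin grey bars span 25% to 75% and 5% to 95% of all genes tested. The members sit between -0.22 and 0.81 with a median of 0.35, and the hemidesmosome genes have a median of 0.85.

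Marker genes were used to check for epithelial cells. Markers of the ciliated, goblet, Clara and alveolar cells that the paper stained were not examined, so airway identity was not tested. All 7 epithelium markers, Epcam, Cdh1, Krt8, Krt18, Krt19, Cldn4 and Cldn7, were tested. Their summed linear signal was 319801 to 343612 in the controls and 298032 to 410914 after TGF-β1. The 5 basal cell markers summed to 44458 to 60723 in the controls and 56659 to 148503 after TGF-β1. TGF-β1 replicate 3 had the lowest of the TGF-β1 sums for both lists, as it had for the desmosome genes. Among the basal markers Krt14, Krt5 and Ngfr had log2 fold changes of 1.55, 1.37 and 1.36, Trp63 had 0.18 and Krt15 had -1.06, and 0 of 5 passed. The Krt15 value was -0.24 (limma adjusted p = 0.346) without TGF-β1 replicate 3. Without TGF-β1 replicate 3, 3 of 5 basal markers rose, Krt14 by 1.92, Ngfr by 1.77 and Krt5 (limma adjusted p = 0.0109, 0.0272 and 0.0194), and Epcam rose by 1.03 (adjusted p = 0.0179) among the epithelium markers, of which 0 of 7 passed with all arrays.

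Markers of other cell types were measured as well. The 5 fibroblast markers summed to 565 to 635 in the controls and to 2644, 1158 and 675 on TGF-β1 arrays 1, 2 and 3. Lum was well above background on 0 of 6 arrays. Col1a2, a fibrillar collagen gene, was well above background on 0 of 3 control and 3 of 3 TGF-β1 arrays and so entered the test through the TGF-β1 group alone. It was at least 2.38-fold higher after TGF-β1, taking each control array at the higher of its own signal and the lowest signal well above background there. The limma test belongs to the unbounded log2 fold change of 2.07 (adjusted p = 0.0162). Since that change uses control signals not well above background, the test is not used as support. Its call was lost without control replicate 1, control replicate 2 or TGF-β1 replicate 2. Thy1 had a log2 fold change of 2.47 with all arrays (limma adjusted p = 0.176) and rose by 3.58 without TGF-β1 replicate 3 (adjusted p = 0.00212). The 5 leukocyte markers summed to 5589 to 6509 in the controls and 8053 to 10167 after TGF-β1, with the common leukocyte gene Ptprc well above background on 0 of 6. Among the leukocyte markers Cd68, Itgam and Cd3e had log2 fold changes of 0.90, 0.43 and -0.24, and 0 passed with or without TGF-β1 replicate 3. Of the 5 endothelial markers, Cdh5, Kdr, Emcn and Tek were well above background on 0 of 6 arrays and Pecam1 had a log2 fold change of 0.13. The part of basal cells, fibroblasts or leukocytes in the values of the desmosome genes was not tested.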

How the data were processed

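RNA of 6 cultures, 3 control and 3 TGF-β1, was hybridized with Cy3 to 1 array each. The authors deposited the spot intensity on a linear scale from Agilent Feature Extraction 11.0.1.1, background-subtracted and not normalized between arrays. Precision is limited by there being 3 arrays a group.

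Here intensities were set to log2 and quantile-normalized, as the methods state, over 56599 of 56605 probes (spots marked as uneven or outliers were left out). Accessions matched RefSeq (GRCm38.p6) symbols for 32991 probes. Probes well above background on at least 3 arrays were kept, and the probe of highest mean stood for a gene. R 4.3.3 and limma 3.58.1 compared the groups, with no covariate, over 14345 genes. The code was tested on simulated data.

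The members, lists and tests were chosen with earlier results of these data known. The text names all 10 members and, from each of 13 other lists (other desmosome, adherens junction, hemidesmosome, keratin, epithelial transcription factor, repressor, cornified envelope, TGF-β target, and epithelium, basal cell, fibroblast, endothelial and leukocyte markers), the genes that passed or, where none did, up to 3 with the largest change; marker lists and genes that passed only without TGF-β1 replicate 3 are named beyond this. The results were recomputed with 75th percentile scaling, normexp (offset 50, on the median brightness, in place of the planned mean), other filters and probe rules, a variance prior with trend, array weights, blocks, each array left out and the methods' t-test.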

Additional observations from a re-analysis of the deposited data

How the results depend on the processing

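Of 180 log2 fold changes of the 10 members under 18 alternatives, 174 kept their direction and their side of the threshold, 2 passed (Pkp1 in both) and 4 changed sign (Jup in all). Pkp1 passed with array weights (1.01, limma adjusted p = 0.00693) and without TGF-β1 replicate 3. Jup turned to -0.078 with scaling to the 75th percentile, -0.047 with the mean of a gene's probes, -0.12 with the second brightest probe and -0.0044 without control replicate 2 (0.084 without control replicate 1). The number of members that passed was 0, except 1 with array weights, 0 to 1 over the arrays left out, and 4 at an unadjusted p under 0.05 without a fold. Members whose groups did not overlap numbered 4, or 1 with scaling to the 75th percentile and 4 to 9 with an array left out (9 without TGF-β1 replicate 3, 7 without control replicate 2), 5 with normexp and 3 with either other probe rule. The share over all genes was taken for the main setting only (12.9% above and 13.5% below). Smaller groups separate more easily, so the counts with an array left out are not read as a result about the members. The members' median was 0.28 to 0.49 with an array left out.

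With the replicate block, 0 members passed and the median was 0.35. The labels do not say whether the replicate numbers pair the samples. Deviations of same-numbered arrays correlated at -0.01, 0.33 and -0.05, and those of differently numbered arrays at -0.37 to 0.25. With so few arrays these values cannot settle whether the samples were paired. Over all genes, 171 rose and 27 fell, against 86 and 18 with the replicate block, 594 and 213 with array weights, 49 and 11 of 22910 with no filter on detection, 312 and 76 by the methods' t-test unadjusted, 4 and 1 by it adjusted, 49 and 7 to 553 and 156 with an array left out, and 1641 and 1543 at an unadjusted p under 0.05 without a fold. The causes were not tested.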
